A study of Mus musculus with 4 samples.

Results

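RNA polymerase II (Pol II) and the factors that bring it to promoters were followed in mouse 2-cell embryos as 47 genes chosen by name, out of 30049 genes in the deposited table. All 47 gene symbols were found. They are 12 subunits of Pol II, 14 genes of TFIID, 2 relatives of the TATA-binding protein (TBP), 16 genes of TFIIA, TFIIB, TFIIE, TFIIF and TFIIH, and 3 genes of the elongation kinase P-TEFb. The embryos were wild type and came from crosses of BDF1 mice with BDF1 mice (BDF1 is the first generation of C57BL/6 and DBA/2). Zygotes taken at 18 h from hCG, the hormone given to induce ovulation, spent 24 h in KSOM, a culture medium for preimplantation stages, to which 2% dimethyl sulfoxide (DMSO) was added for the treated group only, and 50 embryos at the 2-cell stage were collected for each group. Each group has 2 libraries. The labels do not say whether the libraries of a group came from separate cultures, so p-values measure the spread between these libraries, which may be technical. The embryos were pooled, so differences between embryos are not seen.

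Pol II transcribes the protein-coding genes. Its subunits form one enzyme, of which 5 small subunits are also built into RNA polymerases I and III. At a promoter TFIID, which holds TBP and the TBP-associated factors (TAFs), binds DNA first. TFIIA and TFIIB join it, TFIIF brings the polymerase, and TFIIE and TFIIH open the DNA. The kinase module of TFIIH and then P-TEFb phosphorylate the tail of the largest Pol II subunit, which releases the enzyme into elongation. In the mouse the egg's stored RNA is degraded while the embryo's own genome is switched on, mainly at the 2-cell stage, so that RNA of this machinery can come from both sources.

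Values are TPM, an abundance unit for transcripts that is corrected for the length of the transcripts and the size of the library, so that levels of different genes can be compared per length. TPM keep no depth, and no counting error was derived. They are shares of the RNA of a library, so that fewer cells of a type and less RNA per cell cannot be told apart. Summed over the table, TPM came to 768174 and 780527 for the controls (replicate 1 first, here and throughout) and to 772487 and 799166 for the treated libraries. The 47 genes made up 0.734% and 0.724% of these sums in controls against 0.53% and 0.507% after DMSO. Genes encoded in the mitochondrial genome, 13 of them in the table, took 10.8% and 12.4% in controls against 15.3% and 21.7% after DMSO. The groups did not overlap in either share.

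Markers of the labelled stage were present in every library. The 6 genes listed for the 2-cell embryo, led by Tcstv3, summed to 721 and 536 TPM in control embryos against 1856 and 1318 TPM in DMSO-treated embryos, and 3 of them, Tcstv1, Tcstv3 and Usp17lc, rose, beside 6.42% of all genes tested that were called higher. The 8 genes of the egg and early embryo summed to 11834 and 15459 TPM in control embryos against 11538 and 15619 TPM in DMSO-treated embryos, of which Dppa3 alone gave 11639 and 15346 TPM against 10828 and 15216 TPM. Of the 7 that were tested 1 rose, Bmp15, a growth factor of the oocyte, with 102 and 56.0 TPM in controls against 544 and 285 TPM with DMSO (log2 fold change 2.36, adjusted p = 0.0221). The other 6 were not called, with Gdf9, Ooep and Zar1 higher and Zp3 lower in both DMSO libraries and Padi6 and Dppa3 overlapping between the groups, and Nlrp5 was listed at 0 in replicate 1 of each group. Markers of cells that collection can carry over were near 0 for cumulus and granulosa cells, at most 1.46 TPM in any library over 7 genes, 6 of which were above 0 in some library. Their most abundant gene was Cyp19a1, and Amh was at 0 in all libraries. For sperm, 3 of 4 genes were above 0 in some library, and their sum was 2.84 and 3.38 TPM in controls and 13.4 and 8.48 TPM with DMSO, with Prm2 the most abundant and Tnp2 at 0. The sperm genes that were tested, Prm2 and Tnp1, rose (log2 fold changes 1.39 and 1.35, adjusted p = 0.0408 and 0.0429), beside 6.42% of all genes tested. Tnp1 was at 0.281 and 0 TPM in controls against 2.08 and 1.69 TPM with DMSO. It reached the mean of 1 TPM needed for testing only through the DMSO libraries, so its rise adds no evidence. The 3 oviduct genes, led by Ovgp1 and with Foxj1 at 0 in control replicate 2, summed to 19.7 and 22.3 TPM in control embryos against 28.2 and 36.6 TPM in DMSO-treated embryos. The 3 blood genes, led by Hba-a1 and with Hbb-bs at 0 in every library but control replicate 1, summed to 4.08 and 1.6 TPM against 3.8 and 4.52 TPM. The part of these cells in the results was not tested.

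Control and DMSO-treated embryos were compared on log2(TPM + 1) with limma, which pools variance estimates across genes. The fit took the 12038 genes whose mean reached 1 TPM, and a gene is called at a Benjamini-Hochberg adjusted p-value under 0.05. Fold changes on this scale understate the change of genes with low values. Of the 47 genes 46 were tested, and Polr2a was below the filter. In DMSO-treated embryos 12 of the 46 fell and 1 rose, while the other 33 were not called. Over all genes tested 20.5% were called, 14.1% lower and 6.42% higher. The 12 that fell were, from the lowest log2 fold change, Ccnh, Polr2h, Gtf2h2, Cdk7, Polr2k, Taf8, Polr2i, Gtf2f2, Polr2e, Gtf2e2, Polr2d and Taf7, and the 1 that rose was Tbpl2. The median log2 fold change of the 46 genes was -0.65, against -0.09 over all genes tested. Both DMSO libraries lay below both control libraries for 27 of the 46, against 38.7% of all genes tested, and above them for 7, against 31.1%. The plot of fold changes gives each gene with its interval.

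**Figure D1:**
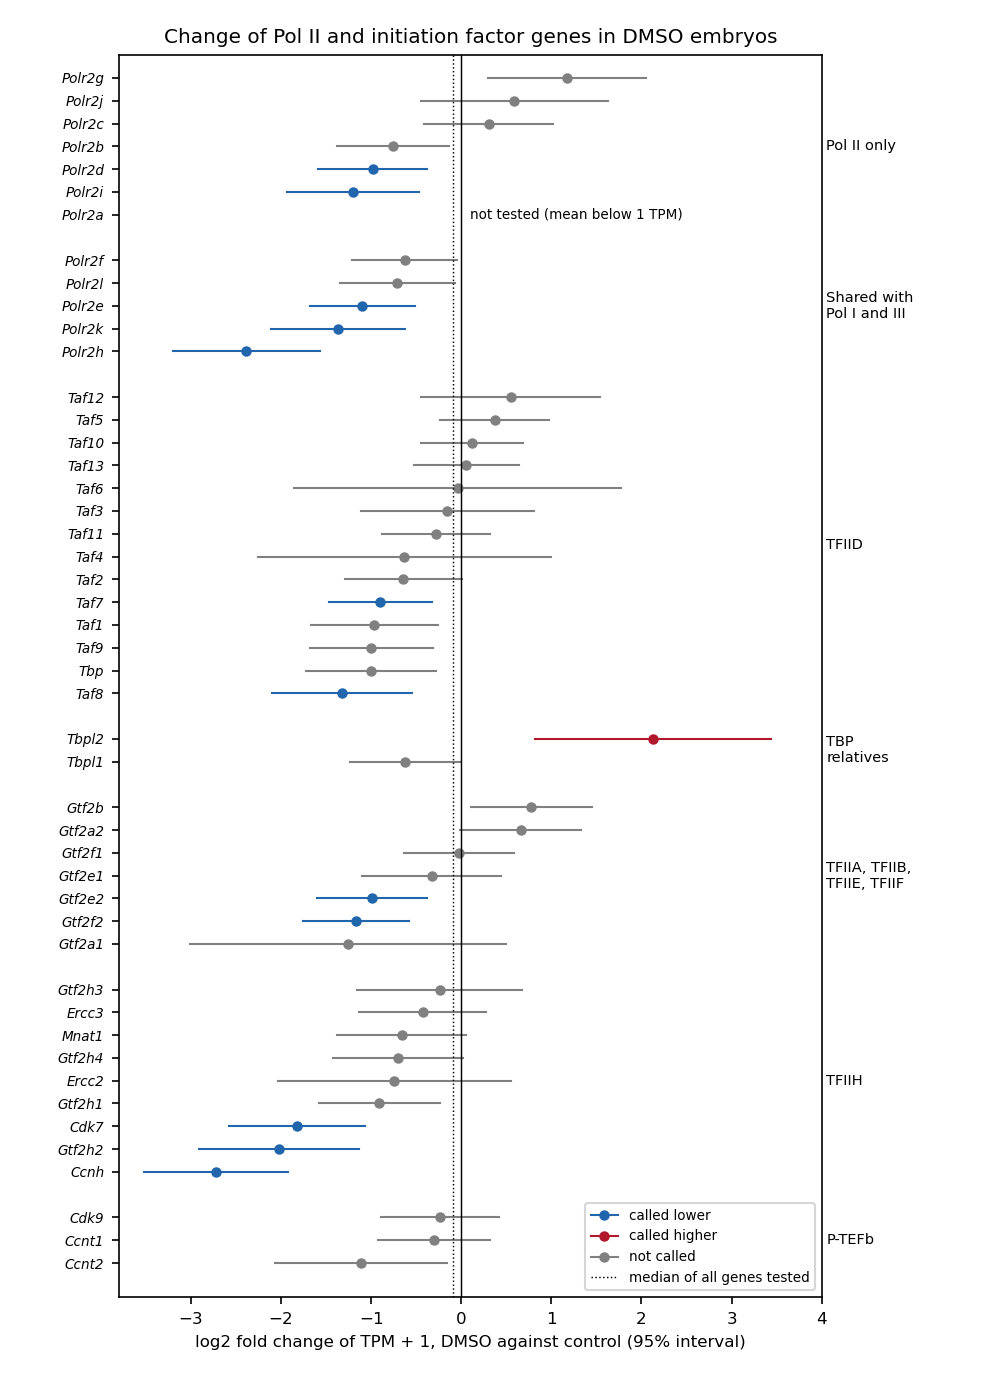
Log2 fold change of TPM + 1 in DMSO-treated against control embryos (horizontal axis) for each gene (rows, grouped by complex), with bars for the 95% interval of the limma fit on 2 libraries a group. Blue marks the 12 genes called lower, red the 1 called higher and grey the others, and the dotted line is the median of all genes tested, at -0.09.

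The number of calls changed with the libraries and with the scaling. Leaving out a single library, whichever it was, left fewer of the 46 called lower, with the range given at the end. Without control replicate 1, control replicate 2, DMSO replicate 1 and DMSO replicate 2 the median log2 fold change of the 46 was -0.67, -0.71, -0.62 and -0.69. Over all genes tested it was -0.02, -0.15, -0.11 and -0.05. With TPM rescaled without the mitochondrial genes 8 of the 46 were called lower and 1 higher, with median-ratio scaling 7 and 2, and with quantile normalization 5 and 3. Over all genes the same settings called 1315 lower and 884 higher of 12025, then 1262 and 949 of 12038, and 1121 and 1076 of 12038. The 5 that were called lower after quantile normalization were Ccnh, Polr2h, Gtf2h2, Cdk7 and Taf8, all among the 12. Polr2d, Polr2i, Gtf2e2 and Taf7 were not called under any of these 3 scalings or without a variance trend, Polr2k not with median-ratio scaling or quantile normalization, Polr2e not without a trend or with quantile normalization, and Gtf2f2 not with quantile normalization. Over all genes, 68.7% of the calls were lower on the deposited values, 59.8% without the mitochondrial genes, 57.1% with median-ratio scaling and 51.0% with quantile normalization. DMSO replicate 1 was below DMSO replicate 2 for all 12 genes that fell and for 26 of the 47 genes. The share with this order among all genes tested, or all genes called lower, was not derived, so it is not shown to be particular to these genes. The median gap between the 2 libraries of a group over the 46 genes was 0.22 in the control group and 0.43 in the DMSO group, in log2(TPM + 1). Over all genes tested these gaps were 0.35 and 0.40.

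Promoter sequence is shown for 3 of the genes that fell, Cdk7, Gtf2h2 and Polr2h, and for Tbpl2, the gene that rose. Ccnh, with the lowest log2 fold change, was not among the genes matched. RefSeq promoters on GRCm38.p6 were matched by symbol for 39 of the 47 genes, with 44 start sites. The 150 bases before the start are shown 5′ to 3′ on the gene's strand, with capitals for matches on either strand to 4 motifs, TATAAA (the TATA box), CCAAT (the CCAAT box), GGGCGG (the GC box, bound by Sp factors) and CGGAAG (the core bound by ETS factors). The motifs do not share letters in these matches. The windows of Polr2h and Gtf2h2 lie inside the GENCODE M21 spans of these genes given below, as the RefSeq starts used are downstream of the GENCODE M21 starts.
Cdk7, chr13:100730943-100731092, minus strand: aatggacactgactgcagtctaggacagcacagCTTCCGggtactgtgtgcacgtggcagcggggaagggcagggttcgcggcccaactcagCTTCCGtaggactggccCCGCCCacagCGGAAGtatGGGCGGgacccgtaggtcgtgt
Gtf2h2, chr13:100492395-100492544, minus strand: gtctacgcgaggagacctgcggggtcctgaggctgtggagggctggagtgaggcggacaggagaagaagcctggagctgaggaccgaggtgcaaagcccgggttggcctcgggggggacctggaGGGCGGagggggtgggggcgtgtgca
Polr2h, chr16:20717676-20717825, plus strand, 1 of 2 start sites: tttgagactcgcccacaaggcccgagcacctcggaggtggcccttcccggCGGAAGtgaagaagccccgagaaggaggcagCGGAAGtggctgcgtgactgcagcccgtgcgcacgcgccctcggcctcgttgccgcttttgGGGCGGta
Tbpl2, chr2:24096596-24096745, minus strand: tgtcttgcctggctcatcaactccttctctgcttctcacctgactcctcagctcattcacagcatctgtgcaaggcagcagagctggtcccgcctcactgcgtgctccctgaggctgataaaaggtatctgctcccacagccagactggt

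The Cdk7 window held 3 matches to the ETS core and 2 to the GC box, and the Polr2h window 2 and 1. The Gtf2h2 window held 1 GC box, and the Tbpl2 window had no exact match to any of the 4 motifs. Only exact letters were searched, so near matches, such as gataaa in the Tbpl2 window, were not counted. Over the 44 windows of these genes 61.4% held a GC box and 34.1% an ETS core, against 49.1% and 19.6% of the windows of all genes tested and 28.6% and 10.4% of all 32851 RefSeq promoters. A CCAAT box was in 18.2% of the 44 windows and a TATA box in 11.4%, against 28.1% and 3.99% for the genes tested and 24.5% and 7.57% for all promoters. For the 7 genes called lower that were matched, with 8 windows, 7 windows held a GC box, 2 an ETS core and 0 a TATA or CCAAT box. The motifs and the printed genes were chosen after the values had been seen, and a match is a description of letters and not of binding.

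Of the 12 Pol II subunits 11 were tested. Of these 5 fell and none was called higher, against 14.1% and 6.42% of all genes tested, and their median log2 fold change was -0.76. The 5 subunits shared with RNA polymerases I and III, of which 3 fell and all 5 had both DMSO libraries below both controls (38.7% of all genes tested), summed to 2078 and 2367 TPM in control embryos against 1019 and 1277 TPM in DMSO-treated embryos. The 7 subunits found in Pol II alone summed to 1130 and 986 TPM in control embryos against 1012 and 871 TPM in DMSO-treated embryos. The sum of the shared subunits was thus separated between the groups, and that of the others overlapped. Of the 6 others that were tested 3 had both DMSO libraries below both controls and 2 above, against 38.7% and 31.1% of all genes tested, and Polr2c overlapped. The difference between these sets was not tested.

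Among the shared subunits, Polr2h (ENSMUSG00000021018, chr16:20717665-20722267, GRCm38, GENCODE M21) was at 273 and 335 TPM in control embryos against 42.6 and 76.5 TPM with DMSO. The log2 fold change was -2.38 (95% interval -3.20 to -1.57, limma adjusted p = 0.0181), the second lowest of the 46 genes. Of its 31-base words 18.0% also occur in transcripts of other genes, 14.6% in the processed pseudogene Gm7511. Polr2k (ENSMUSG00000045996, chr15:36174010-36177010), one of the smallest subunits, was at 285 and 358 TPM against 97.9 and 155 TPM, a log2 fold change of -1.37 (-2.11 to -0.63, adjusted p = 0.032). Its control libraries both lay above its DMSO libraries, but 27.3% of its words are shared with other genes, most of them with the processed pseudogenes Gm14567 and Gm20305. Polr2e (ENSMUSG00000004667, chr10:80035949-80039795), which forms part of the jaw that grips the DNA, was at 344 and 356 TPM against 151 and 176 TPM, a log2 fold change of -1.10 (-1.68 to -0.52, adjusted p = 0.031). None of its words occur in other genes. Polr2f and Polr2l, the other two shared subunits, had log2 fold changes of -0.63 and -0.71 and were not called (adjusted p = 0.105 and 0.0995). Polr2f was the most abundant of the 47 genes per length in every library, at 946 and 1026 TPM in controls and 587 and 692 TPM with DMSO, so that its groups did not overlap either.

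Among the subunits of Pol II alone, Polr2i (ENSMUSG00000019738, chr7:30231948-30233390), a subunit involved in fidelity, was at 101 and 141 TPM in control embryos against 43.2 and 60.4 TPM in DMSO-treated embryos, a log2 fold change of -1.20 (-1.94 to -0.47, adjusted p = 0.0402), and 22.3% of its words are shared with Tbcb. Polr2d (ENSMUSG00000024258, chr18:31789159-31796701) was at 421 and 423 TPM against 189 and 240 TPM, a log2 fold change of -0.98 (-1.59 to -0.38, adjusted p = 0.0406). Polr2d forms the stalk of the enzyme together with Polr2g, which is singled out here after its values were seen. Polr2g was at 116 and 70.6 TPM in control embryos against 263 and 160 TPM in DMSO-treated embryos, a log2 fold change of 1.17 (0.30 to 2.05, adjusted p = 0.0638), and was not called. Among the alternatives without a replicate block it was called higher with median-ratio scaling, with quantile normalization and where genes under a mean of 5 TPM were left out. The level of Polr2d was 3.63 and 5.99 times that of Polr2g in controls and 0.717 and 1.50 times with DMSO. As Polr2d was lower and Polr2g higher in both DMSO libraries, this ratio had to differ between the groups and adds no evidence. The difference between the genes was not tested.

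Polr2b (ENSMUSG00000029250, chr5:77310147-77349324), the second largest subunit and part of the active site, was at 91.3 and 79.6 TPM in control embryos against 46.0 and 54.1 TPM in DMSO-treated embryos. The groups did not overlap, but it was not called (log2 fold change -0.76, -1.38 to -0.14, adjusted p = 0.0793). With the replicate block Polr2b was called lower. Polr2c, which nucleates the assembly of the enzyme, lay nearest to 0 among the subunits, at 394 and 269 TPM against 463 and 350 TPM (log2 fold change 0.31, -0.41 to 1.02), and its groups overlapped. Of its words 30.8% are shared with other genes. Its assembly partner Polr2j was low, at 6.87 and 2.63 TPM against 7.19 and 6.88 TPM.

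Polr2a (ENSMUSG00000005198, chr11:69733997-69758637), the largest subunit, which carries the tail and most of the active site, was the lowest of the 47 genes by group mean. It was at 0.205 and 0.86 TPM in control embryos against 0.417 and 0 TPM in DMSO-treated embryos, so that the groups overlapped and no fold change is given. Polr2b was at 91.3 and 79.6 TPM in the same control libraries, and none of the 31-base words of Polr2a occur in other genes. GENCODE M21 lists 4 transcripts of Polr2a, the longest of 6740 bases. Of the 1738 protein-coding genes in the table with a transcript at least as long, 61.1% had a mean of at least 1 TPM, against 50.8% of all protein-coding genes. Taf1, with a transcript of 8054 bases, had 40.6 and 38.1 TPM in the controls. Which transcripts of Polr2a the authors' index held was not checked here.

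**Figure D2:**
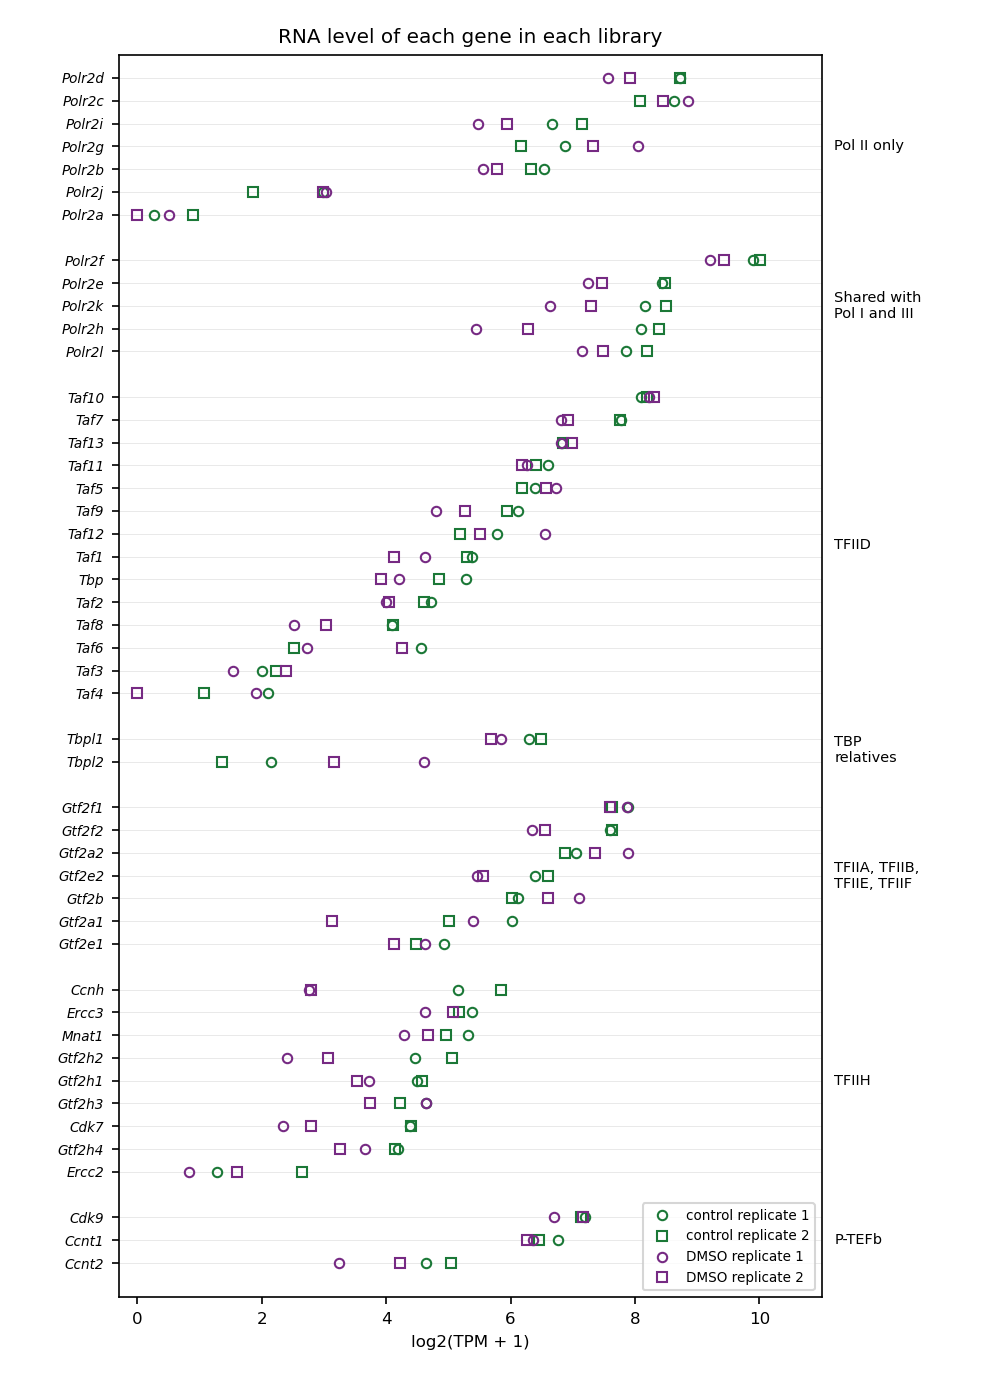
Level of each of the 47 genes in each library as log2(TPM + 1) (horizontal axis), with rows grouped by complex and sorted by the control mean. Green symbols are control and purple symbols DMSO libraries, circles replicate 1 and squares replicate 2. Polr2f lies farthest right and Polr2a farthest left, and for Ccnh, Polr2h, Gtf2h2 and Cdk7 both purple symbols lie well left of both green ones.

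Of the 14 TFIID genes 2 fell and 12 were not called, and the median log2 fold change was -0.46. This share of 14.3% called lower is close to the background of 14.1%. Taf8 (ENSMUSG00000023980, chr17:47483364-47502292), which joins TAF2 and TAF10 in the complex, was at 16.1 and 16.2 TPM in control embryos against 4.7 and 7.19 TPM in DMSO-treated embryos, a log2 fold change of -1.33 (-2.10 to -0.55, adjusted p = 0.0372). Taf7 (ENSMUSG00000051316, chr18:37640491-37644204), which binds TAF1, was at 217 and 215 TPM against 111 and 121 TPM, a log2 fold change of -0.90 (-1.47 to -0.32, adjusted p = 0.0444). Both genes were nearly equal in the 2 control libraries, and 0.176% of the words of Taf8 and none of those of Taf7 are shared. With a pseudocount of 0.1 Taf7 was also not called.

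Tbp (ENSMUSG00000014767, chr17:15499888-15528379), the DNA-binding core of TFIID, was at 37.7 and 27.8 TPM in control embryos against 17.4 and 14 TPM in DMSO-treated embryos. The groups did not overlap, but the adjusted p-value was 0.0582 (log2 fold change -1.01, -1.73 to -0.28). Of its words 18.6% are shared, most of them with Pdcd2. Taf9 and Taf1, the largest TFIID subunit, lay just outside the threshold as well, with log2 fold changes of -0.996 and -0.96 (adjusted p = 0.0531 and 0.061). Tbp, Taf9 and Taf1 were called lower where genes under a mean of 5 TPM were left out and with the replicate block. Taf9 is uncertain because 70.7% of its words also occur in Ak6, which overlaps it and was 16.1 to 23.1 times as high per length in these libraries. The log2 fold changes of Taf2 and Taf4 were -0.64 and -0.63, and Taf4 was low, at 3.27 and 1.1 TPM against 2.73 and 0 TPM.

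The other TFIID genes were nearer to 0. Taf5, the scaffold of the complex, was at 82.7 and 71.3 TPM in control embryos against 105 and 94.1 TPM in DMSO-treated embryos, higher in both, but was not called (log2 fold change 0.37, -0.24 to 0.98). Taf13 and Taf11, which form a pair, had log2 fold changes of 0.06 and -0.28. Taf9, Taf10 and Taf12 are also subunits of the coactivator SAGA. Taf10 was at 273 and 291 TPM against 299 and 315 TPM, and 49.6% of its words are shared, mostly with Ilk, while Taf12 overlapped between the groups. Taf6 was nearest to 0 (log2 fold change -0.04, -1.85 to 1.78), but its replicates disagreed, at 22.4 and 4.72 TPM in control embryos against 5.65 and 18.1 TPM in DMSO-treated embryos, so this interval does not bound a change. Taf3 was at 3.01 and 3.66 TPM against 1.89 and 4.22 TPM, and its groups overlapped.

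Of the 2 relatives of TBP 1 rose, against 6.42% of all genes tested, and 1 was not called. Tbpl2 (ENSMUSG00000061809, chr2:24071721-24096595), which takes the place of TBP in the growing oocyte, was at 3.44 and 1.56 TPM in control embryos against 23.4 and 7.95 TPM in DMSO-treated embryos. It rose by a log2 fold change of 2.13 (0.82 to 3.44, adjusted p = 0.0408), and none of its words are shared. The size depended on the library left out. The log2 fold change was 1.41 without DMSO replicate 1 and 2.85 without DMSO replicate 2, and 2.53 and 1.73 without control replicate 1 and control replicate 2. Tbpl1 (ENSMUSG00000071359, chr10:22703879-22731938), which serves promoters without a TATA box and spermatogenesis, was at 77.9 and 88.5 TPM against 56.5 and 50.6 TPM and was not called (log2 fold change -0.63, -1.24 to -0.02, adjusted p = 0.118). In the control libraries Tbp was 11 and 17.8 times as high as Tbpl2, and in the DMSO libraries 0.744 and 1.77 times. Tbpl1 was the highest of the 3 in every library, at 2.07 to 3.60 times Tbp.

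Of the 7 genes of TFIIA, TFIIB, TFIIE and TFIIF 2 fell, against 14.1% of all genes tested. Gtf2f2 (ENSMUSG00000067995, chr14:75896937-76010865), the smaller subunit of TFIIF, was at 192 and 198 TPM in control embryos against 80.2 and 92.8 TPM in DMSO-treated embryos, a log2 fold change of -1.17 (-1.76 to -0.58, adjusted p = 0.0284). Its partner Gtf2f1 was nearest to 0 of the 16 initiation factor genes, at 235 and 197 TPM against 233 and 193 TPM (log2 fold change -0.02, -0.63 to 0.59), and its sign turned with each of the 3 other scalings and with the length and GC correction. The level of Gtf2f1 was 1.22 and 0.995 times that of Gtf2f2 in controls and 2.90 and 2.08 times with DMSO. Neither gene shares words with others.

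Of the 2 TFIIE genes 1 fell, against 14.1% of all genes tested. Gtf2e2 (ENSMUSG00000031585, chr8:33731833-33777173), its smaller subunit, fell, with 83 and 95.5 TPM in controls against 42.8 and 45.9 TPM with DMSO (log2 fold change -0.99, -1.60 to -0.38, adjusted p = 0.0408). Gtf2e1, the larger, was at 29.3 and 21.3 TPM against 23.6 and 16.5 TPM and overlapped between the groups. Gtf2b, the single subunit of TFIIB, and Gtf2a2, the small subunit of TFIIA, were higher in both DMSO libraries, with log2 fold changes of 0.78 and 0.66, but were not called (adjusted p = 0.0897 and 0.131). Gtf2b was at 68.4 and 64.1 TPM in control embryos against 136 and 95.6 TPM in DMSO-treated embryos, and among the alternatives without a replicate block was called higher with quantile normalization. Gtf2a1, the large precursor of TFIIA, varied most between replicates among these 7 genes, at 64.3 and 31.3 TPM against 41.1 and 7.74 TPM, and its groups overlapped.

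All 9 TFIIH genes among the 47 had a log2 fold change below 0, as had 6401 of all 12038 genes tested. Of the 9 genes 3 fell, against 14.1% of all genes tested, and the sum over the 9 was 219 and 236 TPM in controls and 105 and 110 TPM with DMSO. The 3 genes of the CDK-activating kinase, the module that phosphorylates the Pol II tail and also activates the cell cycle kinases, summed to 93.2 and 107 TPM against 28.3 and 36.3 TPM. The DMSO libraries lay below the control libraries for each of the 3, against 38.7% of all genes tested. Ccnh (ENSMUSG00000021548, chr13:85189408-85223469), the cyclin of the module, was at 34.6 and 56.6 TPM in control embryos against 5.79 and 5.95 TPM with DMSO. The log2 fold change of -2.72 (-3.52 to -1.92, adjusted p = 0.0181) was the lowest of the 46 genes. Cdk7 (ENSMUSG00000069089, chr13:100702631-100730939), the kinase, was at 19.8 and 20.1 TPM against 4.06 and 5.93 TPM, a log2 fold change of -1.82 (-2.58 to -1.07, adjusted p = 0.0217). Mnat1, which holds the kinase and the cyclin together, was at 38.8 and 30.0 TPM against 18.4 and 24.4 TPM and was not called (log2 fold change -0.66, -1.38 to 0.06, adjusted p = 0.148). The level of Mnat1 was 1.96 and 1.49 times that of Cdk7 in controls and 4.55 and 4.11 times with DMSO. The difference between the genes was not tested.

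Among the 47, the TFIIH core had 6 genes, of which 1 fell (16.7%, near the 14.1% of all genes tested), and Gtf2h5, another core subunit, is described with the further initiation factor genes. Gtf2h2 (ENSMUSG00000021639, chr13:100460218-100492579), the p44 subunit, was at 21 and 32.2 TPM in control embryos against 4.32 and 7.32 TPM in DMSO-treated embryos, a log2 fold change of -2.02 (-2.91 to -1.13, adjusted p = 0.0228). Gtf2h1 and Gtf2h4 were lower in both DMSO libraries without being called (log2 fold changes -0.91 and -0.70, adjusted p = 0.0623 and 0.131), as was the helicase gene Ercc3 at -0.43. The other helicase gene, Ercc2, was low, at 1.43 and 5.23 TPM against 0.785 and 2.04 TPM, shares 34.1% of its words, and overlapped between the groups, as did Gtf2h3. Ccnh, Cdk7 and Gtf2h2 kept a log2 fold change of at most -1.59 without any one library, and under each alternative with all 4 libraries they were called except where low genes were not filtered out, where no gene was (adjusted p of the 3 from 0.102 to 0.103).

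**Figure D3:**
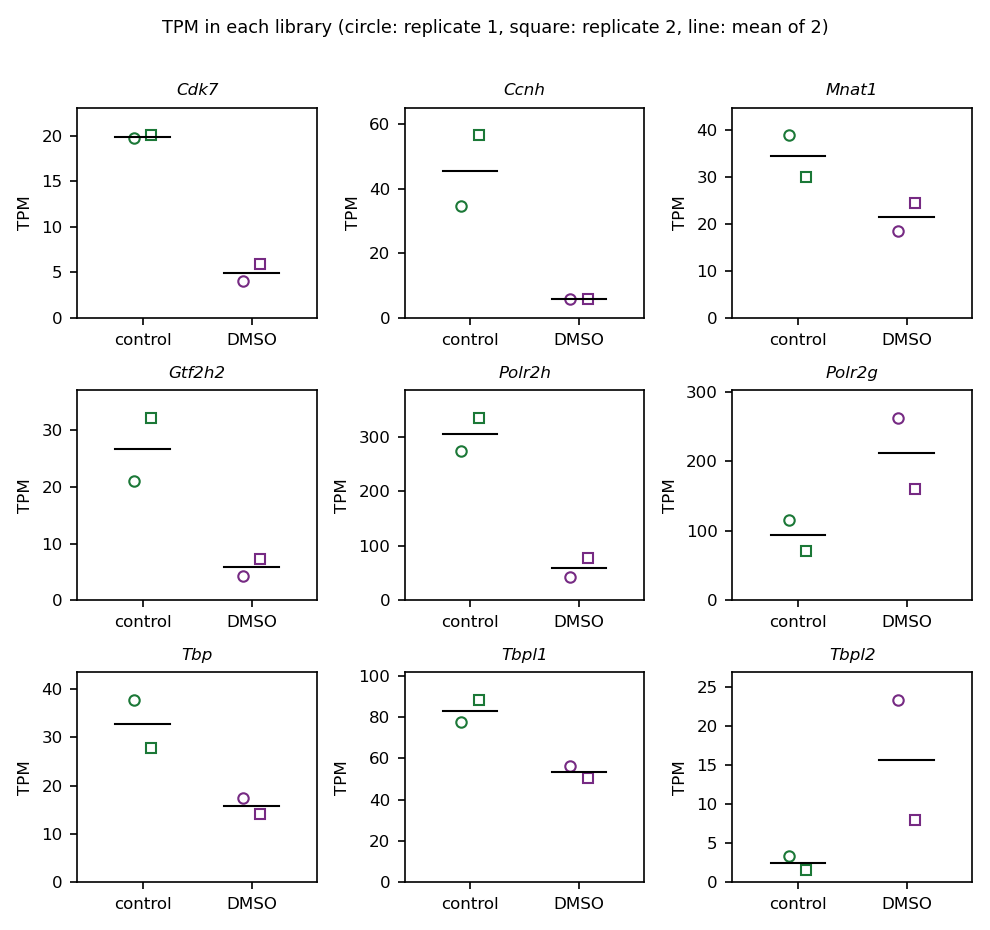
TPM (vertical axes, from 0) of 9 genes in each library, control embryos in green and DMSO-treated embryos in purple, with circles for replicate 1, squares for replicate 2 and lines for the mean of 2 libraries. Cdk7, Ccnh, Gtf2h2 and Polr2h lie near the bottom of their axes in both DMSO libraries, and Polr2g and Tbpl2 are higher in both, with replicate 1 above replicate 2.

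The position of these genes was examined after their values had been seen. Gtf2h2, Taf9 and Cdk7 lie within 270722 bases on chromosome 13 (chr13:100460218-100730939), and Ccnh is on the same chromosome, some distance away. In this span and 250000 bases on either side 8 other genes were tested, of which 6 had a log2 fold change below 0, 1 fell (Slc30a5, -1.32, adjusted p = 0.0464) and none was called higher, and their median was -0.58. Ak6, which shares sequence with Taf9, had a log2 fold change of -0.91, and Ocln, Marveld2 and Rad17, which lie between Gtf2h2 and Taf9, had 0.18, 0.51 and -0.48. Of the 441 genes tested on chromosome 13, 15.6% were called lower, with a median log2 fold change of 0.11.

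None of the 3 genes of P-TEFb was called. Cdk9, the kinase, was at 145 and 140 TPM in control embryos against 103 and 142 TPM in DMSO-treated embryos (log2 fold change -0.23, -0.88 to 0.42), and its sign turned with quantile normalization. Its cyclin Ccnt1 was at 108 and 87.0 TPM against 81.0 and 75.6 TPM, and Ccnt2 at 23.9 and 32.0 TPM against 8.48 and 17.6 TPM (log2 fold change -1.11, -2.06 to -0.16, adjusted p = 0.0872). Both DMSO libraries lay below both controls for each cyclin, against 38.7% of all genes tested. Of 5 regulators 1 rose and 1 fell, against 6.42% and 14.1% of all genes tested. Hexim1, which holds P-TEFb inactive, rose, with 25.3 and 23.4 TPM in controls against 72.7 and 60.9 TPM with DMSO (log2 fold change 1.41, standard error 0.27, adjusted p = 0.0237). Larp7, which protects the RNA of the same inhibitory particle, fell, with 111 and 79.9 TPM in controls against 46.3 and 40.4 TPM with DMSO (log2 fold change -1.10, standard error 0.28, adjusted p = 0.0409).

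Of 12 further initiation factor genes 9 were tested, 2 fell and 2 rose, against 14.1% and 6.42% of all genes tested, with a median log2 fold change of -0.31. Gtf2h5, the smallest TFIIH subunit, fell, with 246 and 320 TPM in controls against 103 and 161 TPM with DMSO (log2 fold change -1.12, adjusted p = 0.0491). Taf9b, the paralog of Taf9, rose, with 9.87 and 4.44 TPM in controls against 44.8 and 23.7 TPM with DMSO (log2 fold change 2.13, adjusted p = 0.0299). The ratio of Taf9b to Taf9 was 0.144 and 0.0735 in controls against 1.67 and 0.631 with DMSO, with the reads of Taf9 uncertain as above. Taf4b, the TAF4 paralog of the germ line, singled out after its values were seen, was at 90.8 and 91.8 TPM against 54.5 and 55.2 TPM and was not called (adjusted p = 0.0774). It was 27.8 and 83.4 times as high as Taf4 in the control libraries.

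Of 32 genes tested of Mediator, which links activators to Pol II, 5 fell (15.6%) and 3 rose (9.38%), near the 14.1% and 6.42% of all genes tested, with a median log2 fold change of -0.48. Med8 had the lowest log2 fold change of those called, -1.72, from 4.18 and 3.46 TPM to 0.364 and 0.550 TPM (adjusted p = 0.025). Med27 had the highest, 1.90, from 217 and 93.9 TPM to 635 and 453 TPM (adjusted p = 0.0317). Of 28 elongation factor genes 8 fell and none was called higher, with a median of -0.59. Supt5, the conserved factor that binds elongating Pol II, had the lowest, -2.84, from 12.9 and 16.3 TPM to 0.802 and 1.58 TPM (adjusted p = 0.0181), and Supt6 the one nearest to 0 of the 8, -1.16.

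Of 10 genes of Pol II assembly, tail phosphatases and capping 5 fell and none was called higher, with a median log2 fold change of -1.19. Ctdp1, a phosphatase of the Pol II tail, had the lowest log2 fold change of those called, -1.31, from 54.4 and 59.5 TPM to 20.9 and 23.7 TPM (adjusted p = 0.0259), and Gpn3, which brings the polymerase into the nucleus, the highest, -1.18. Of 18 subunits of RNA polymerases I and III that are not part of Pol II 10 fell, all 18 had a log2 fold change below 0, and the median was -1.38. Polr3d had the lowest, -2.34, from 7.65 and 4.62 TPM to 0.893 TPM in DMSO replicate 2, being listed at 0 in replicate 1. Polr3e had the highest of those called, -1.36. These counts stand beside the 14.1% of all genes called lower and the 6.42% called higher, and the difference between lists was not tested. The lists, like the 47 genes, were chosen with earlier results of these data known.

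**Figure D4:**
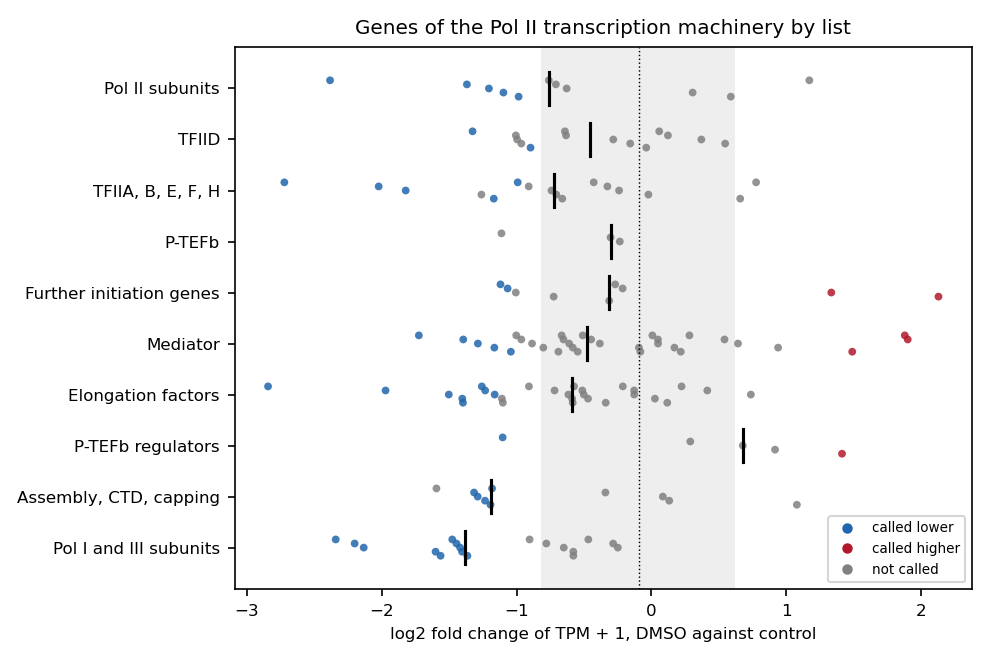
Log2 fold change of TPM + 1 in DMSO-treated against control embryos for each gene tested (points) of each list (rows), with black bars for the list's median. Blue points are called lower, red higher and grey not called, the dotted line is the median of all genes tested and the grey band runs from their lower to their upper quartile, -0.81 to 0.62. The medians run from -1.38 for subunits of RNA polymerases I and III to 0.68 for regulators of P-TEFb.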

How the data were processed

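Amplified cDNA was sequenced. The authors mapped reads with kallisto to the Ensembl transcriptome of GRCm38 (mm10), summed transcripts per gene with tximport and deposited TPM for 30049 genes. The submitters' processing notes also name STAR, SAMtools and bedtools. The study's DESeq2 test needs counts and was not repeated. Names and transcripts came from GENCODE M21, which named 29668 genes. Of the list genes 2 were not analysed here. Low genes were removed (mean under 1 TPM), and log2(TPM + 1) was tested by limma 3.58.1 under R 4.3.3 with a mean-variance trend and no replicate block. With 2 libraries against 2 an exact permutation test cannot go below p = 0.333. The steps were tested on simulated data. Shared sequence is the share of 31-base words found in transcripts of other genes. Genes given in full are the called genes with the 3 largest changes per subgroup, Polr2a, Polr2b, Tbp and its relatives, and the gene nearest to 0 per complex. Of other lists the lowest and highest called are named. Genes outside this rule were chosen after their values were seen. Members and lists were chosen with earlier results of these data known. Alternatives changed the pseudocount, filter, trend, scaling, length and GC correction, block and libraries.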

Additional observations from a re-analysis of the deposited data

How the results depend on the processing

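The medians of Pol II, of TFIID and of TFIIA, TFIIB, TFIIE, TFIIF and TFIIH together stayed below 0 under all 14 alternatives. The median of Pol II, -0.76, became -0.66 with median-ratio scaling and -0.48 with quantile normalization. Of the 46 genes 7 were called lower without a variance trend, 7 with median-ratio scaling, 5 with quantile normalization, 8 without mitochondrial genes, 11 with a pseudocount of 0.1 and 14 with the length and GC correction. Over all genes tested 1397, 1262, 1121, 1315, 1448 and 1815 were called lower in these settings, in the same order. These are out of 12038 genes, or 12025 without mitochondrial genes. Of 43 genes that passed a filter at 5 TPM 16 were called lower and 2 higher. Of all 7470 genes that passed it 1684 were called lower and 766 higher. Median-ratio scaling and quantile normalization called 2 and 3 of the 46 higher, and 949 and 1076 of all 12038 genes tested. Pol II genes called lower were 2 without a trend, 2 with median-ratio scaling, 1 with quantile normalization and 3 with TPM rescaled without mitochondrial genes, a setting chosen after seeing the data. These counts, of 11 genes tested, stand beside the counts over all genes given above. TFIID genes called lower were 5 with the filter at 5 TPM and 1 with a pseudocount of 0.1, without a trend and with each of the 3 other scalings. For TFIIA, TFIIB, TFIIE, TFIIF and TFIIH quantile normalization gave 3. With no filter on low values 22257 genes were tested and limma called 0 of them, so that all these counts were 0, while 5368 genes, 25 of the 47 among them, had an unadjusted p under 0.05. The cause of these shifts was not tested.

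Replicate numbers are shared between the groups, and same-numbered libraries deviated together with r = 0.35 across 12038 genes, which are not independent replicates. With 2 pairs the numbers are only shared. With the replicate block 5132 of all 12038 genes were called, 2981 lower and 2151 higher. Of the 46 genes 22 were then called lower and 4 higher, with 8 lower in Pol II and 5 in TFIID. With the replicate block and a length and GC correction 4731 of all 12038 genes were called, 2772 lower and 1959 higher. Of the 46 genes 21 were then called lower and 4 higher, with 5 lower in TFIID. Under both fits with the block Polr2g and Gtf2b were among the 4 called higher. Besides the 12, Tbp, Taf1, Taf9, Polr2b, Polr2l, Tbpl1, Gtf2h1, Gtf2a1 and Ccnt2 were called lower under both. Polr2f was called lower with the block but not with the correction added.

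Leaving out each library in turn gave 0 to 1883 called genes, 0 to 9 of the 46 lower and 0 to 1 higher, with 0 to 3 lower in Pol II, 0 to 1 in TFIID and 0 to 4 in the other initiation factors. The lone library of a group is then assumed to vary like the other group. The median of Pol II ran from -0.88 to -0.65 and that of TFIID from -0.80 to -0.23. The log2 fold change of Taf6 turned to 0.0596 with median-ratio scaling, 0.0372 with quantile normalization and 0.0509 without mitochondrial genes, and ran from -1.05 to 0.98 without single libraries. That of Gtf2f1 turned to 0.0793, 0.23 and 0.0748 under the same scalings and to 0.0257 with the length and GC correction, with or without the block, and ran from -0.16 to 0.11 without single libraries. That of Cdk9 turned to 0.0593 with quantile normalization, and ran from -0.47 to 0.00098 without single libraries. TPM keep no depth, so that what depth limits could not be given.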
